A study of Mus musculus with 5 samples.

Results

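Mitochondrial ribosomal proteins are made from nuclear genes, translated in the cytosol and imported into mitochondria, where they join the RNAs of the mitochondrial genome in a large and a small subunit. The assembled mitoribosome translates only the proteins that the mitochondrial genome encodes, all of them parts of the respiratory chain and ATP synthase. Compared with its bacterial relatives it has lost RNA and gained protein: some subunits have bacterial counterparts and others are found only in mitochondria. In muscle, which relies on oxidative metabolism, these genes are studied together with the growth and renewal of mitochondria. The genes were taken by name, as every row of the deposited table whose symbol starts with Mrpl or Mrps and a number, pseudogene names left out. That gave 76 of 23361 genes, 47 named for the large subunit (Mrpl) and 29 for the small subunit (Mrps). All 76 had a mean of at least 1 FPKM over the 5 libraries, as did 11128 genes in all, and none was listed at 0 in any library. FPKM is a number of sequenced fragments scaled by the length of the gene and by the size of the library.

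The cells were C2C12, an immortalised mouse myoblast line that serves as a model of muscle progenitors, kept proliferating in medium rich in glucose and supplemented with fetal bovine serum. The study asked what genetic and small-molecule interference with PKM2 does to such cells; PKM2 is the M2 form of pyruvate kinase, which makes pyruvate as glycolysis ends. The 5 libraries of polyadenylated RNA came from cells carrying a hairpin RNA against PKM2 for 72 h (shPKM2), cells carrying a control hairpin for 72 h (shControl), cells given shikonin for 8 h (Shikonin), cells given TEPP-46 for 8 h (TEPP-46) and cells given vehicle for 8 h (Vehicle). Shikonin, a plant naphthoquinone, is known as a PKM2 inhibitor with other targets as well, and TEPP-46 is known as a PKM2 activator; the doses and hairpin sequences were not in the labels. The hairpin and the compound libraries each have their own control, so shControl and Vehicle differ in both hairpin and time.

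Each condition was 1 library, so no difference below was tested, and every difference describes those libraries only. Estimated depth, in units of 1000000 fragments, was 25.4 to 35.1, lowest in Shikonin and highest in Vehicle. From these depths a member had between 105 and 10168 estimated fragments in a library, and the counting error of a difference between libraries had medians of 0.053 to 0.059 on the log2(FPKM + 1) scale. This error covers counting only and leaves out variation between cultures and library preparations; it is the SE given after ± below. Pkm, the gene of PKM2 and of its M1 form, stood at 1041 FPKM in shPKM2 and 2061 FPKM in shControl, a ratio of 0.505. It stood at 1501 FPKM in Shikonin, 1198 in TEPP-46 and 1321 in Vehicle, so shControl was 1.56 times Vehicle. The defining myoblast markers were present in every library, with Itga7 between 106 and 127 FPKM and Des between 171 and 311 FPKM. Cdh15 ran from 38.9 FPKM in shPKM2 to 78.7 in Vehicle and Myod1 from 26.1 in Shikonin to 63.3 in shPKM2. Myf5 ranged most, from 3.69 FPKM in Shikonin to 32.1 in shControl. The 10 markers of other cell types summed to 1.54 FPKM in shPKM2, 1.82 in shControl, 4.57 in Shikonin, 1.16 in TEPP-46 and 1.52 in Vehicle, and the adipocyte marker Plin1 was listed at 0 throughout.

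The members spanned a wide range of levels that was much the same in every library. The mean over the 5 libraries ran from 5.66 FPKM for Mrpl35 to 191 FPKM for Mrps6, with a median of 44.0 FPKM. The 47 large subunit genes had a median of 45.7 FPKM and the 29 small subunit genes one of 42.5 FPKM. For all 11128 genes the median was 15.1 FPKM, and for the 82 cytosolic ribosomal protein genes past the same filter it was 1160 FPKM. Since FPKM is scaled by length, these levels can be set beside each other, as far as the length used for each gene is right.

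8 members were among the 10 highest of every library: Mrpl12, Mrpl13, Mrpl20, Mrpl30, Mrpl33 and Mrpl52 of the large subunit and Mrps6 and Mrps21 of the small subunit. At the other end, Mrpl1, Mrpl11, Mrpl17, Mrpl19, Mrpl35, Mrpl41, Mrps14 and Mrps25 were among the 10 lowest of every library. Mrps6 had 242 FPKM in shPKM2, 240.2 in shControl, 201 in Shikonin, 125 in TEPP-46 and 148 in Vehicle. Mrpl52 had 186 FPKM in shPKM2, 222 in shControl, 123 in Shikonin, 180.1 in TEPP-46 and 207 in Vehicle. Mrpl35 had 5.36 FPKM in shPKM2, 5.83 in shControl, 6.39 in Shikonin, 5.16 in TEPP-46 and 5.56 in Vehicle. Mrps6 was the highest member in both hairpin libraries and in Shikonin, but not in TEPP-46 or Vehicle, where Mrpl52 was.

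**Figure D1:**
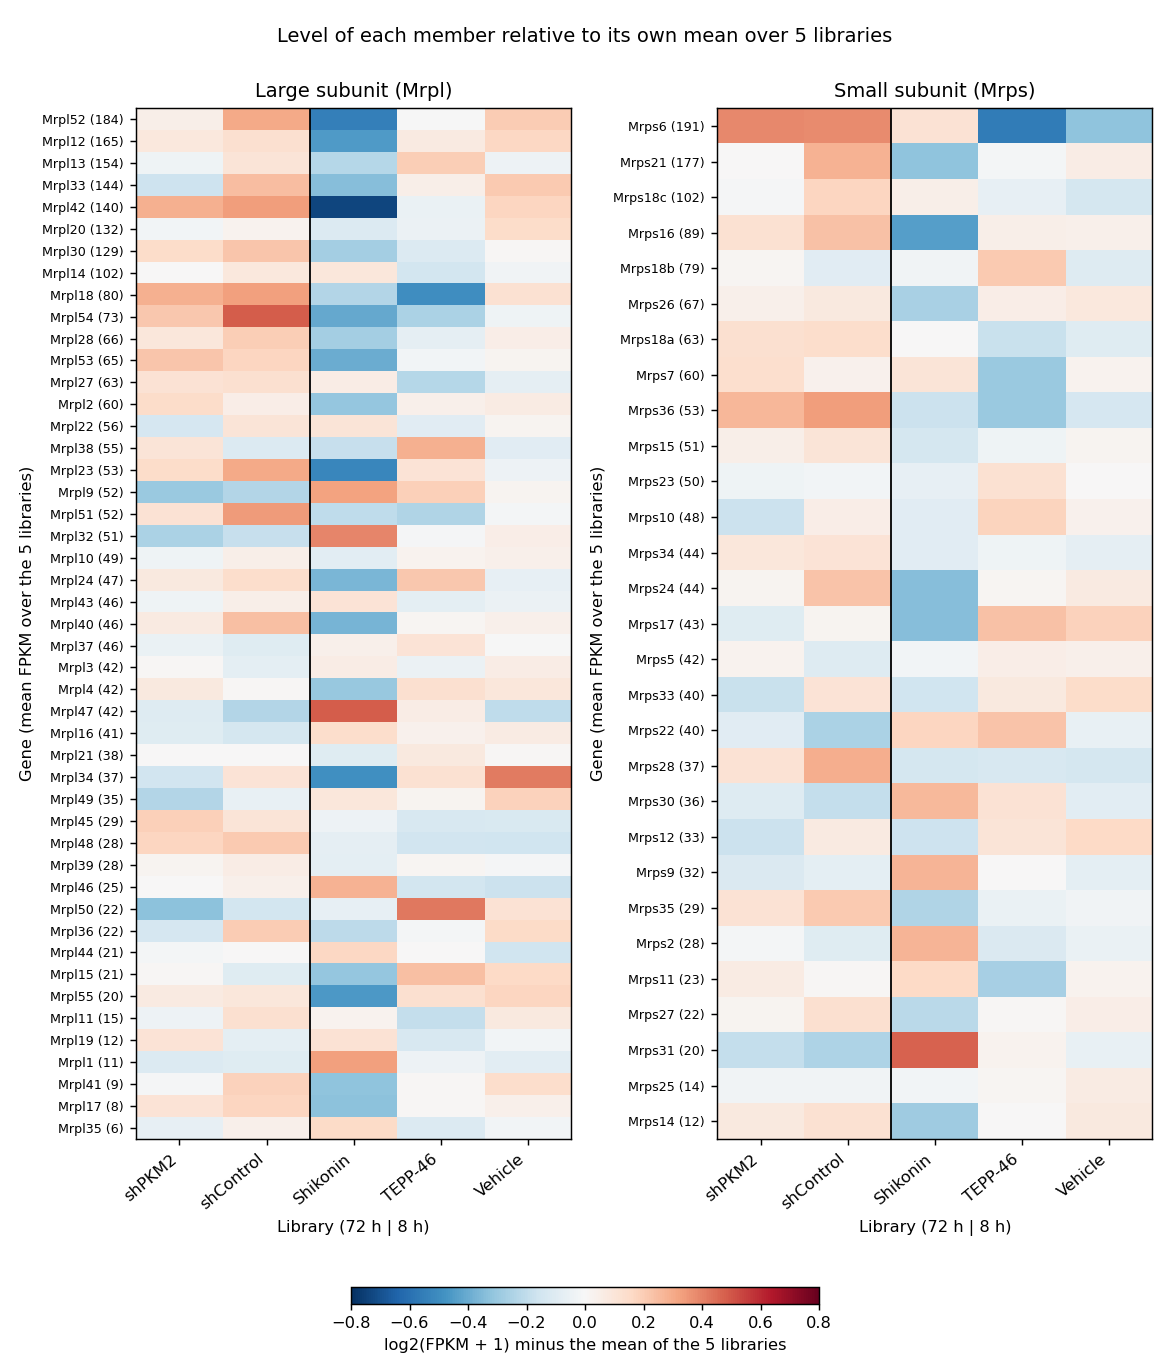
Each cell is the log2(FPKM + 1) of 1 gene in 1 library minus the mean of that gene over the 5 libraries; genes run from the highest mean level at the top to the lowest, with the mean FPKM in brackets. Deep blues stand in the Shikonin column at Mrpl42, Mrpl52, Mrpl23 and Mrpl34 and in the TEPP-46 column at Mrps6 and Mrpl18, and reds in the Shikonin column at Mrpl47 and Mrps31.

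Between libraries a member moved little. The highest library was 1.07 to 2.11 times the lowest, with a median of 1.36 over the 76 members. Mrpl42 had the widest range, with 165 FPKM in shPKM2, 172 in shControl, 81.2 in Shikonin, 131 in TEPP-46 and 153 in Vehicle, so that Shikonin stood apart from the other 4 libraries. Mrps25 had the narrowest, with 13.2 FPKM in shPKM2, 13.2 in shControl, 13.3 in Shikonin, 13.7 in TEPP-46 and 14.2 in Vehicle. Differences are of log2(FPKM + 1) throughout, and members are counted where they were at least 0.32 apart on that scale, a ratio of 5 to 4. No member was 2-fold apart in any of the 5 comparisons, against 0.62% of all genes between shPKM2 and shControl, 7.5% between Shikonin and Vehicle, 1.59% between TEPP-46 and Vehicle, 7.28% between Shikonin and TEPP-46 and 4.14% between shControl and Vehicle. All genes reach down to a mean of 1 FPKM and the members to 5.66 FPKM. Shares of all genes, here and below, were not matched to the members in level.

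Set against each other, the subunits kept close median levels while their sums shifted. The median level of the large subunit genes was 43.9 FPKM in shPKM2, 43.0 in shControl, 44.2 in Shikonin, 45.8 in TEPP-46 and 45.4 in Vehicle. That of the small subunit genes was 42.3 FPKM in shPKM2, 45.7 in shControl, 41.3 in Shikonin, 43.0 in TEPP-46 and 43.8 in Vehicle. The summed level of the large subunit was 2711 FPKM in shPKM2 and 2900 FPKM in shControl. It was 2315 FPKM in Shikonin and 2630 FPKM in TEPP-46, against 2754 FPKM in Vehicle, so the lowest sum was that of Shikonin. The summed level of the small subunit was 1629 FPKM in shPKM2 and 1713 FPKM in shControl, and 1482 FPKM in Shikonin and 1500.0 FPKM in TEPP-46, against 1517 FPKM in Vehicle.

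The small subunit sum over the large subunit sum was therefore 0.601 in shPKM2 and 0.591 in shControl. It was 0.640 in Shikonin and 0.570 in TEPP-46, against 0.551 in Vehicle, with counting errors of 0.0038 to 0.0052. Shikonin had the highest ratio and Vehicle the lowest. The sums weigh abundant genes most, and Mrps6 differed by over 100 FPKM between the hairpin libraries and TEPP-46. Without Mrps6, left out after its values were seen, the ratio was 0.512 in shPKM2, 0.508 in shControl, 0.554 in Shikonin, 0.523 in TEPP-46 and 0.497 in Vehicle, and TEPP-46 then lay above both hairpin libraries. Together the members made up 0.766% of the summed FPKM in shPKM2, 0.779% in shControl, 0.643% in Shikonin, 0.722% in TEPP-46 and 0.758% in Vehicle.

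**Figure D2:**
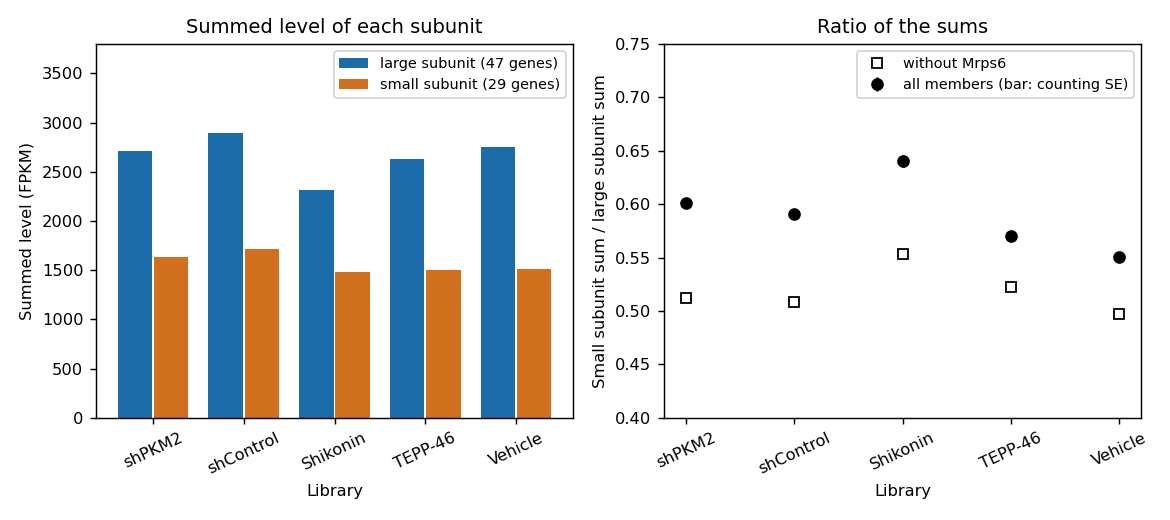
Left, the summed FPKM of the 47 large and 29 small subunit genes in each library; right, the small subunit sum over the large subunit sum, for all members (filled, with a counting error smaller than the symbol) and without Mrps6 (open squares), on an axis that does not start at 0. The large subunit bar is lowest in Shikonin at 2315 FPKM, where the ratio is highest at 0.640.

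Shikonin against Vehicle gave the widest spread of the members, with more of them lower than higher. Of the 76 members 48 were lower in Shikonin (63.2%) and 28 higher, beside 52.2% lower among all genes. 25 members (32.9%) were at least 0.32 lower, beside 27.5% of all genes, and 10 (13.2%) were at least 0.32 higher, beside 23.8% of all genes. The share that was lower thus lay near that of all genes, and the share that was higher lay below it. The median difference was -0.10 over the members and -0.03 over all genes. In these bulk samples fewer cells of a type and less RNA per cell cannot be told apart.

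Large subunit genes made up 18 of the 25 members at least 0.32 lower. These were 38.3% of the 47 large subunit genes, of which 5 (10.6%) were at least 0.32 higher. Of the 29 small subunit genes 7 (24.1%) were lower and 5 (17.2%) higher by that much. The median difference was -0.18 in the large subunit and -0.06 in the small subunit, a gap of -0.12 with subunits taken by name. The gap depended on how a few genes were assigned: with subunits by structure, as given further on, the medians were -0.13 in the large and -0.08 in the small subunit. The cytosolic ribosomal proteins, by contrast, had a median difference of 0.11 in the same comparison, and 70 of 82 were higher in Shikonin.

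**Figure D3:**
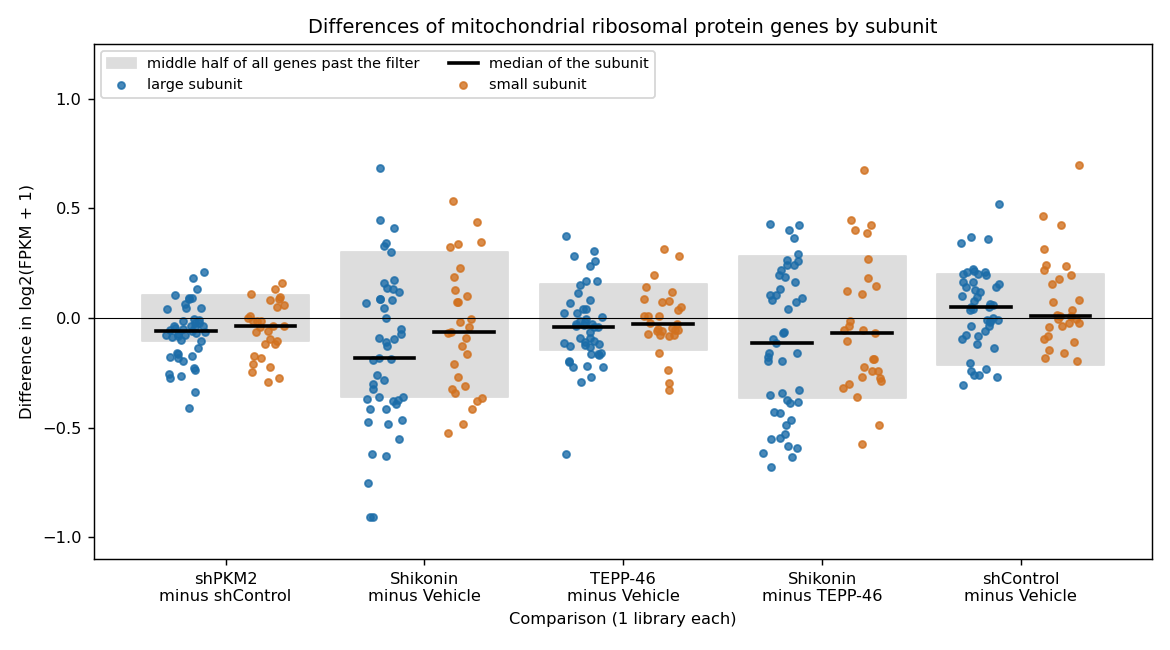
Each point is the difference of 1 member in log2(FPKM + 1) between the named libraries, large subunit left (blue) and small subunit right (orange) within a comparison; black bars are medians and the grey band spans the quartiles of all 11128 genes. In Shikonin minus Vehicle the large subunit median is -0.18 and the small subunit median -0.06. In TEPP-46 minus Vehicle the medians are -0.04 and -0.03.

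The members furthest down in Shikonin were all large subunit genes. Mrpl34, whose protein has a bacterial counterpart (L34), lies on chr8:71464959-71465747 (+ strand, GRCm38) and had 25.5 FPKM in Shikonin and 48.7 FPKM in Vehicle, -0.91 ± 0.10. Mrpl42, a protein found only in mitochondrial ribosomes, lies on chr10:95480805-95501940 (- strand, GRCm38) and differed by -0.91 ± 0.055, from the levels given above. Mrpl52, also specific to mitochondria and on chr14:54426909-54429756 (+ strand, GRCm38), differed by -0.75 ± 0.066. All of these differences were over 8 times their counting error. Mrpl55, which is now counted with bacterial L31, had 14.0 FPKM in Shikonin and 22.1 FPKM in Vehicle, -0.63 ± 0.11. Mrpl12, whose bacterial counterpart forms the stalk that recruits translation factors, lies on chr11:120484613-120489065 (+ strand, GRCm38) and had 173 FPKM in shPKM2, 178 in shControl, 118 in Shikonin, 171 in TEPP-46 and 183 in Vehicle. Its difference was -0.62 ± 0.030, and the other 4 libraries lay close together.

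Among the higher members the largest difference was that of Mrpl47, whose protein sits beside the exit of the peptide tunnel. It lies on chr3:32725397-32737605 (- strand, GRCm38) and had 38.5 FPKM in shPKM2, 35.0 in shControl, 58.2 in Shikonin, 43.2 in TEPP-46 and 35.9 in Vehicle. Shikonin was highest and TEPP-46 next. Its difference from Vehicle in Shikonin was 0.68 ± 0.030. Mrps31, a mitochondria-specific protein of the small subunit, had 17.4 FPKM in shPKM2, 16.8 in shControl, 28.2 in Shikonin, 20.4 in TEPP-46 and 19.2 in Vehicle, a difference of 0.53 ± 0.065. Mrpl46, of the central protuberance of the large subunit, had 30.8 FPKM in Shikonin and 22.3 FPKM in Vehicle, 0.45 ± 0.073. Mrps6, the counterpart of bacterial S6, differed by 0.44 ± 0.035, and Mrpl1, of the L1 stalk that guides spent transfer RNA out, by 0.41 ± 0.055.

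Markers and depth moved in the same comparison. All 5 myoblast markers were lower in Shikonin and their sum was 358 FPKM in Shikonin and 570.1 FPKM in Vehicle. Myod1, the master regulator of the muscle lineage, had 26.1 FPKM in Shikonin and 63.2 FPKM in Vehicle. Of the 10 markers of other cell types 1 was lower in Shikonin, and the mesenchymal marker Pdgfra had 4.01 FPKM in Shikonin and 1.24 FPKM in Vehicle. The leukocyte marker Ptprc had 0.055 FPKM in Shikonin and 0.034 FPKM in Vehicle. The part of these shifts in the members' differences was not tested.

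Transcript length went with the shikonin difference in the large subunit. Lengths were those of the shortest principal coding transcript in GENCODE M21, with a median of 1221 nt over the members and 2795 nt over the 10198 genes past the filter with such a transcript. 15 large and 11 small subunit genes, 31.9% and 37.9%, were under 1000 nt, beside 7.45% of all genes. The 26 short members had a median difference of -0.34 in Shikonin, and 14 of them (53.8%) were at least 0.32 lower. The 50 longer members had a median of -0.07, and 11 of them (22%) were lower by that much. Among all genes the shares were 33.9% under 1000 nt and 27.3% from 1000 nt up.

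With subunits taken by name, the 2 subunits differed within this length class. In the large subunit the 15 short genes had a median of -0.41 with 10 of 15 at least 0.32 lower, and the 32 longer genes a median of -0.08 with 8 of 32. In the small subunit the 11 short genes had a median of -0.04 with 4 of 11 lower, and the 18 longer genes a median of -0.06 with 3 of 18. That median of -0.04 was the value of Mrps36. Mrps36 and Mrps18a, the latter at 0.10, count among the 11 by name only, as given further on. The split by length was not repeated with subunits by structure. Pearson's r of the difference with log2 length was 0.49 across the 47 large subunit genes and -0.03 across the 29 small subunit genes, and 0.02 across the 10198 genes. These are correlations across genes of the same libraries, which share depth and preparation, and genes are no replicates. Mrpl34, Mrpl42 and Mrpl52 have transcripts of 607, 661 and 418 nt, while Mrpl47 has one of 3364 nt.

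**Figure D4:**
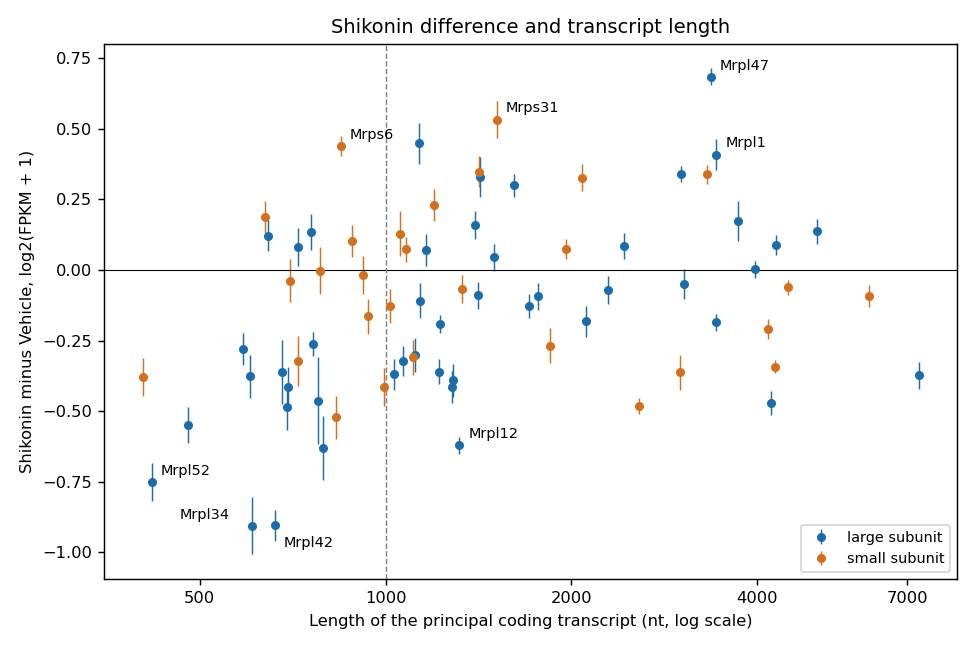
Difference in log2(FPKM + 1) of Shikonin minus Vehicle for each member against the length of its coding transcript on a log axis; bars are 1 counting SE and the dashed line marks 1000 nt. With subunits taken by name, 10 of 15 large subunit genes (blue) left of the line lie at least 0.32 below 0, against 4 of 11 small subunit genes (orange).

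The promoters of the members at both ends of the shikonin comparison are shown with that of Mrpl18, the lowest member with TEPP-46, and that of Mrps11, whose start faces that of Mrpl46. Each window runs from 250 bases before to 50 bases after the RefSeq start of the gene on GRCm38.p6, 5′ to 3′ on the gene's strand. Capitals mark matches, on either strand, to short motifs known from promoters of mitochondrial genes or of stress responses: GCGCANGC for NRF1, CCGGAAG for ETS factors such as GABP, AAGATGG for YY1, CACGTG for E-box factors, TGATGNAA for ATF4 and TGACNNNGC for the antioxidant element. GGGCGG for SP1 and CCAAT were searched as well and left in lower case.
Mrpl34, chr8:71464676-71464975, + strand: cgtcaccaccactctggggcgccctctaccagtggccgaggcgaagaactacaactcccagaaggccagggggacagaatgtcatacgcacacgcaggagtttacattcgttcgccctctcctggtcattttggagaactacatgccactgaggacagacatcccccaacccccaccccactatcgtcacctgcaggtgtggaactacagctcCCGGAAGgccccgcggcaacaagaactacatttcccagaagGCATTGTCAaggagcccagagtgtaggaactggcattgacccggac
Mrpl42, chr10:95501900-95502199, - strand: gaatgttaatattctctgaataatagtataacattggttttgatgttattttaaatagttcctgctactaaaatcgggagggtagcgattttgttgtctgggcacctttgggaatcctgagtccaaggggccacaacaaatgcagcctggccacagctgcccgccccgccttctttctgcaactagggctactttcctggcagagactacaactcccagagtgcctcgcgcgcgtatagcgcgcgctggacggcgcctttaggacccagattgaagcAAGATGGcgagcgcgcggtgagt
Mrpl52, chr14:54426659-54426958, + strand: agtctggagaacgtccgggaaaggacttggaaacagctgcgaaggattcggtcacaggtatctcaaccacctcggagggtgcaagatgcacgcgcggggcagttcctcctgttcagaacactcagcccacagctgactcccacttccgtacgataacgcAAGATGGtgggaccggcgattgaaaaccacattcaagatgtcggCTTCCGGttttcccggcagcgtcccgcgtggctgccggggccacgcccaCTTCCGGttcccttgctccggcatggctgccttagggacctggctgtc
Mrpl47, chr3:32736706-32737005, - strand: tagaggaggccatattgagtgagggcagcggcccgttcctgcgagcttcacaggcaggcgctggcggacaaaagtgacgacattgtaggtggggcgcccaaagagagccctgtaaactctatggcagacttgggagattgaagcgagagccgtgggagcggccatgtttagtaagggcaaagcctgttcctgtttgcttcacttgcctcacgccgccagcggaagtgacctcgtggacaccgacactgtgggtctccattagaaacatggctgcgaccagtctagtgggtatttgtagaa
Mrpl18, chr17:12916042-12916341, - strand: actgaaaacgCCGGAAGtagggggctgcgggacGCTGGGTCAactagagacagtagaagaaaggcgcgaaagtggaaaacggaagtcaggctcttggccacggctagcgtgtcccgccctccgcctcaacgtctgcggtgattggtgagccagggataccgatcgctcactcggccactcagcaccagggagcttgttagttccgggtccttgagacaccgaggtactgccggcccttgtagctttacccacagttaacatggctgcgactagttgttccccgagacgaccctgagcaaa
Mrps11, chr7:78782881-78783180, + strand: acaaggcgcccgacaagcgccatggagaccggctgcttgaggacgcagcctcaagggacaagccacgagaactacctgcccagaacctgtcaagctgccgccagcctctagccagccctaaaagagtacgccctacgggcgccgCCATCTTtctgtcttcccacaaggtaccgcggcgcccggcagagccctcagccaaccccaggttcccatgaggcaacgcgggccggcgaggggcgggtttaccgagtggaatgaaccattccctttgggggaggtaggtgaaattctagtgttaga

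In these 6 windows the capitals are an ETS motif and an antioxidant element in Mrpl34, a YY1 motif in Mrpl42, a YY1 and 2 ETS motifs in Mrpl52, none in Mrpl47, an ETS motif and an antioxidant element in Mrpl18 and a YY1 motif in Mrps11. The RefSeq start of Mrpl47 lies 850 bases and that of Mrpl18 254 bases from the outer end of the gene in GENCODE M21. RefSeq windows were matched for 67 of the 76 members and for 8751 genes past the filter.

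The share of windows with a motif was set beside that of all genes, as a description. The YY1 motif was in 13 of 67 members (19.4%) and in 7.68% of all genes, and the ETS motif in 22 of 67 (32.8%) and in 20.2%. The NRF1 core was in 20 of 67 (29.9%) and in 22.1%. The SP1 motif was in 33 of 67 (49.3%) and in 67.6%, and the E-box in 5 of 67 (7.46%) and in 10.7%. The CCAAT motif was in 27 of 67 (40.3%) and in 39.3%, and the antioxidant element in 13 of 67 (19.4%) and in 14.9%. The ATF4 letters were in none of the 67 windows and in 2.09% of all genes. Members' windows had a median GC content of 58.0%, beside 61.3% for all genes.

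Median differences in Shikonin against Vehicle were also taken with and without a motif. The median was -0.23 in members with the ETS motif and -0.07 in those without it. It was -0.26 with the E-box, which 5 members hold, and -0.09 without it. It was -0.18 with the CCAAT motif and 0.0043 without it, and -0.16 with the antioxidant element and -0.08 without it. For the YY1 motif it was -0.09 with and -0.10 without, for the SP1 motif -0.09 with and -0.10 without, and for the NRF1 core -0.08 with and -0.11 without. A match describes letters in these windows and says nothing of a factor's binding.

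TEPP-46 against Vehicle left most members near where they were. 47 of 76 (61.8%) were lower in TEPP-46 and 29 higher, beside 50.2% lower among all genes, with a median of -0.04 over the members and 0.00 over all genes. The median was -0.04 in the large and -0.03 in the small subunit. 2 members were at least 0.32 lower (2.63%), beside 8.91% of all genes, and 1 was at least 0.32 higher (1.32%), beside 10.6% of all genes. Both shares lay below those of all genes, which were not matched to the members in level.

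The 3 members past 0.32 were Mrpl18, Mrps7 and Mrpl38. Mrpl18, a protein of the central protuberance whose bacterial counterpart binds 5S RNA, lies on chr17:12911349-12916345 (- strand, GRCm38) and had 95.2 FPKM in shPKM2, 98.1 in shControl, 66.2 in Shikonin, 55.1 in TEPP-46 and 85.3 in Vehicle. TEPP-46 was the lowest library and Shikonin the next, and the difference of TEPP-46 from Vehicle was -0.62 ± 0.045. Mrps7, of the head of the small subunit, had 65.5 FPKM in shPKM2, 61.2 in shControl, 64.2 in Shikonin, 48.3 in TEPP-46 and 60.9 in Vehicle, so TEPP-46 stood below the other 4 libraries, and it differed by -0.33 ± 0.037. Mrpl38, a mitochondria-specific protein of the central protuberance, had 58.6 FPKM in shPKM2, 50.5 in shControl, 47.9 in Shikonin, 66.5 in TEPP-46 and 51.0 in Vehicle, with TEPP-46 above the other 4, and differed by 0.38 ± 0.043.

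Next lowest with TEPP-46 were Mrps11 at -0.30 ± 0.084, Mrpl34 at -0.29 ± 0.086 and Mrpl11 at -0.27 ± 0.055. Next highest were Mrps18b at 0.31 ± 0.043, Mrpl50 at 0.31 ± 0.050, Mrps22 at 0.29 ± 0.056 and Mrpl24 at 0.28 ± 0.054. Mrpl50 had 17.1 FPKM in shPKM2, 19.5 in shControl, 20.8 in Shikonin, 29.5 in TEPP-46 and 23.7 in Vehicle, so that TEPP-46 was its highest library. Mrpl34 lay below Vehicle in all of the other 4 libraries, with 32.5 FPKM in shPKM2, 39.2 in shControl, 25.5 in Shikonin, 39.6 in TEPP-46 and 48.7 in Vehicle. The comparisons with Vehicle all share that 1 library.

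Shikonin and TEPP-46, both given for 8 h, were also set against each other, a comparison that shares its libraries with those against Vehicle. The doses are not given, so the compounds cannot be set at matched doses. 46 of 76 members (60.5%) were lower in Shikonin than in TEPP-46, beside 53.1% of all genes. 21 (27.6%) were at least 0.32 lower, beside 28% of all genes, and 9 (11.8%) at least 0.32 higher, beside 22.5%. By subunit these were 18 lower and 4 higher of 47 large subunit genes and 3 lower and 5 higher of 29 small subunit genes. The median difference was -0.11 in the large and -0.07 in the small subunit, beside -0.04 over all genes.

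The lowest members were Mrpl42 at -0.68 ± 0.058, Mrpl23 at -0.63 ± 0.084, Mrpl34 at -0.62 ± 0.11, Mrpl55 at -0.59 ± 0.12 and Mrpl24 at -0.58 ± 0.062. Mrpl23 and Mrpl24 both line the exit of the peptide tunnel. Mrpl23 had 57.6 FPKM in shPKM2, 64.4 in shControl, 35.9 in Shikonin, 56.2 in TEPP-46 and 50.6 in Vehicle, lowest in Shikonin, and Mrpl24 had 49.6 FPKM in shPKM2, 51.9 in shControl, 36.2 in Shikonin, 54.7 in TEPP-46 and 44.8 in Vehicle, lowest in Shikonin and highest in TEPP-46. The highest members were Mrps6 at 0.68 ± 0.040, Mrps31 at 0.45 ± 0.068, Mrpl46 at 0.43 ± 0.077, Mrps11 at 0.43 ± 0.088 and Mrpl47 at 0.42 ± 0.031.

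The members spanned their narrowest range in the knockdown, -0.41 to 0.21. Between shPKM2 and shControl 55 of 76 members (72.4%) were lower in shPKM2, beside 49.7% of all genes, with a median of -0.05 over the members and 0.00 over all genes. The median was -0.06 in the large and -0.04 in the small subunit, and -0.13 in the cytosolic ribosomal proteins, of which 79 of 82 were lower. 2 members were at least 0.32 lower (2.63%), beside 4.26% of all genes, and 0 at least 0.32 higher, beside 4.65%. After rescaling the libraries to TPM, on which every library has the same total, 35 members were lower and 41 higher, but the median of all genes was then 0.06. Relative to the median of all genes, 56 members were lower and 20 higher in shPKM2.

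The 2 members past 0.32 were Mrpl33 and Mrpl36, small proteins with bacterial counterparts. Mrpl33 lies on chr5:31596935-31664384 (+ strand, GRCm38) and had 127 FPKM in shPKM2, 169 in shControl, 112 in Shikonin, 146 in TEPP-46 and 164 in Vehicle; it differed by -0.41 ± 0.061. Mrpl36 had 19.9 FPKM in shPKM2, 25.4 in shControl, 18.8 in Shikonin, 21.7 in TEPP-46 and 24.4 in Vehicle and differed by -0.34 ± 0.11. In both genes shControl lay near Vehicle and shPKM2 below both. Mrps33 followed at -0.29 ± 0.064, Mrpl54 at -0.27 ± 0.064 and Mrps21 at -0.27 ± 0.062. At the high end stood Mrpl38 at 0.21 ± 0.047, Mrpl19 at 0.18 ± 0.047, Mrps22 at 0.16 ± 0.064, Mrpl47 at 0.13 ± 0.035 and Mrps5 at 0.13 ± 0.029.

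The knockdown difference also went with length, and here in both subunits. The 26 members under 1000 nt had a median of -0.14 and the 50 longer members one of -0.04. Pearson's r with log2 length was 0.44 across the 76 members, 0.44 in the large and 0.44 in the small subunit, beside 0.15 across all 10198 genes. The 760 genes under 1000 nt had a median of -0.10 and the 9438 longer genes one of 0.01. All of these are correlations across genes of the same 2 libraries.

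The 2 control libraries give a measure of how far apart libraries without an agent against PKM2 can lie, although they differ in hairpin and time. Pkm itself was 1.56 times as high in shControl as in Vehicle. Between shControl and Vehicle 32 of 76 members (42.1%) were lower in shControl and 44 higher, beside 52.9% lower among all genes. 0 members were at least 0.32 lower, beside 14.5% of all genes, and 7 (9.21%) at least 0.32 higher, beside 17.2%. The median was 0.05 in the large and 0.01 in the small subunit, and -0.02 over all genes. On the TPM scale 43 members were lower and 33 higher, with the median of all genes at -0.08. Relative to the median of all genes, 25 members were lower and 51 higher in shControl.

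The highest member was Mrps6, on chr16:92058270-92112227 (+ strand, GRCm38), with 0.70 ± 0.034. Its values, given above, were 240 to 242 FPKM in the hairpin libraries and 125 to 201 FPKM in the 8 h libraries. How many of all genes part in this way was not counted, here or for genes named below. Slc5a3, a carrier of myo-inositol, lies within the span of Mrps6 on the same strand. It had 14.4 FPKM in shPKM2, 13.8 in shControl, 6.36 in Shikonin, 6.90 in TEPP-46 and 8.14 in Vehicle, and it differed by 0.69 between shControl and Vehicle. How reads of the 2 genes were divided is not given in the sources used here. With shikonin they went apart: Mrps6 differed by 0.44 and Slc5a3 by -0.31 from Vehicle.

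Next highest between the controls were Mrpl54 at 0.52 ± 0.063, Mrps36 at 0.47 ± 0.069, Mrps28 at 0.43 ± 0.076 and Mrpl48 at 0.37 ± 0.033. Mrpl54 had 83.1 FPKM in shPKM2, 101 in shControl, 53.5 in Shikonin, 59.8 in TEPP-46 and 69.8 in Vehicle, higher in both hairpin libraries than in any 8 h library. The lowest were Mrpl34 at -0.30 ± 0.088, Mrpl50 at -0.27 ± 0.056, Mrpl9 at -0.26 ± 0.045, Mrpl15 at -0.26 ± 0.039 and Mrpl49 at -0.24 ± 0.048. The difference of Mrps6 between the 2 controls was larger than that of any member between shPKM2 and shControl or between TEPP-46 and Vehicle.

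By role, the stalk was the group whose members all lay on 1 side, in Shikonin and in TEPP-46 against Vehicle. It holds Mrpl10, Mrpl11, Mrpl12, Mrpl53 and Mrpl54 and receives the translation factors. 5 of 5 were lower in Shikonin than in Vehicle, with a median of -0.38, and 3 of them by at least 0.32, beside 52.2% and 27.5% of all genes. These 3 were Mrpl12 at -0.62 ± 0.030, Mrpl53 at -0.41 ± 0.071 and Mrpl54 at -0.38 ± 0.076. Mrpl53 and Mrpl54, at 695 and 604 nt, are also among the 15 short large subunit genes, whose median was -0.41. Mrpl12 has 1316 nt. Role and length were not tested apart. Mrpl10 differed by -0.13 ± 0.043 and Mrpl11 by -0.05 ± 0.054. 5 of 5 were also lower in TEPP-46 than in Vehicle, beside 50.2% of all genes, with a median of -0.09 and none past 0.32. Of these, Mrpl10 at -0.01 ± 0.041 and Mrpl53 at -0.04 ± 0.064 lay within their counting error. Between shControl and Vehicle 1 of 5 was lower and 4 higher, beside 52.9% lower among all genes. 4 of 5 were lower in shPKM2 than in shControl, beside 49.7% of all genes, with a median of -0.08.

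The peptide exit tunnel and its contact with the inner membrane, with Mrpl17, Mrpl22, Mrpl23, Mrpl24, Mrpl39, Mrpl44, Mrpl45 and Mrpl47, was split. 4 of 8 were lower in Shikonin than in Vehicle and 4 higher, with a median of 0.01. Mrpl23 at -0.48 ± 0.082 and Mrpl24 at -0.30 ± 0.061 stood on the low side and Mrpl47 and Mrpl44, at 0.33 ± 0.071, on the high side. In the central protuberance, with Mrpl18, Mrpl27, Mrpl38, Mrpl40, Mrpl46 and Mrpl48, 3 of 6 were lower and 3 higher, with a median of 0.00 and a range of -0.42 for Mrpl40 to 0.45 for Mrpl46. In the decoding and mRNA entry group of the small subunit, with Mrps2, Mrps5, Mrps12, Mrps24, Mrps33 and Mrps35, 5 of 6 were lower with a median of -0.26, beside 52.2% lower among all genes. Mrps24 was at -0.41 ± 0.067 and Mrps2, the exception, at 0.33 ± 0.048.

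By origin, as classed by systematic names, proteins with bacterial counterparts and those counted as specific to mitochondria did not part clearly. An assigned class is not proof of origin: Mrps18a and Mrps18b of the S18 family stand in the mitochondria-specific lists. In Shikonin against Vehicle 12 of 30 large subunit proteins with a bacterial counterpart were at least 0.32 lower and 3 higher, with a median of -0.23. Of 21 mitochondria-specific large subunit proteins 7 were lower and 3 higher by that much, with a median of -0.09. In the small subunit 6 of 16 in the bacterial class and 1 of 10 in the mitochondria-specific class were at least 0.32 lower, with medians of -0.10 and -0.08. Among all genes 27.5% were lower and 23.8% higher by that much, so several of these counts lay near the share of all genes. In TEPP-46 against Vehicle and in shPKM2 against shControl the medians of these 4 groups lay between -0.09 and 0.01. These groups follow structure, so the large subunit lists also take in Mrps30, Mrps18a and 2 genes listed under older names.

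The letter of a name does not always give the subunit. Mrps30 and Mrps18a encode proteins that structures place in the large subunit, and Mrps36 is now known as a part of the 2-oxoglutarate dehydrogenase complex rather than of the ribosome. Mrps30 had 32.9 FPKM in shPKM2, 30.9 in shControl, 42.5 in Shikonin, 38.4 in TEPP-46 and 33.4 in Vehicle, highest in Shikonin, and differed by 0.34 ± 0.034 from Vehicle there. Mrps36 had 62.8 FPKM in shPKM2, 65.8 in shControl, 46.1 in Shikonin, 42.2 in TEPP-46 and 47.3 in Vehicle, highest in the hairpin libraries. With subunits assigned by structure, and Mrps36 left out, the median of Shikonin minus Vehicle was -0.13 in the large and -0.08 in the small subunit, and that of Shikonin minus TEPP-46 was -0.09 in the large and -0.15 in the small subunit. In the comparison of the compounds the order of the subunits thus turned with the assignment.

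The 3 paralogs of the S18 family, of which Mrps18b and Mrps18c belong to the small subunit, behaved apart. Mrps18a had 68.4 FPKM in shPKM2, 69.0 in shControl, 62.8 in Shikonin, 55.2 in TEPP-46 and 58.4 in Vehicle. Mrps18b had 79.7 FPKM in shPKM2, 73.7 in shControl, 77.0 in Shikonin, 91.2 in TEPP-46 and 73.2 in Vehicle, highest in TEPP-46. Mrps18c had 101 FPKM in shPKM2, 115 in shControl, 105 in Shikonin, 97.2 in TEPP-46 and 92.2 in Vehicle, highest in shControl. Their shikonin differences were 0.10 ± 0.058 for Mrps18a, 0.07 ± 0.046 for Mrps18b and 0.19 ± 0.057 for Mrps18c, all above 0 and under 0.32.

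The wider machinery of mitochondrial translation was measured in the same libraries. Of 7 mitoribosome subunits with other names 6 were lower in Shikonin than in Vehicle, 2 of them by at least 0.32, with a median of -0.15, beside 52.2% and 27.5% of all genes. Chchd1, a small subunit protein, had 64.1 FPKM in shPKM2, 86.4 in shControl, 57.5 in Shikonin, 92.2 in TEPP-46 and 84.3 in Vehicle, lower in shPKM2 and Shikonin than in the other 3. Mrp63, the large subunit protein now named Mrpl57, had 4.63 FPKM in shPKM2, 5.60 in shControl, 3.54 in Shikonin, 7.99 in TEPP-46 and 6.13 in Vehicle, and differed by -0.65 between Shikonin and Vehicle and by 0.33 between TEPP-46 and Vehicle. Ptcd3, an RNA-binding protein of the small subunit, was the 1 that was higher in Shikonin, at 0.08. In shPKM2 against shControl 1 of the 7, Chchd1, was at least 0.32 lower at -0.43, beside 4.26% of all genes.

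Of 25 genes of mitoribosome assembly and ribosomal RNA modification 5 were at least 0.32 lower and 4 higher in Shikonin than in Vehicle, with a median of 0.01, beside 27.5% lower and 23.8% higher among all genes. Mtg1, a GTPase of large subunit assembly, was lowest at -0.85, with 4.14 FPKM in Shikonin and 8.25 FPKM in Vehicle. Noa1, also a GTPase, followed at -0.47. Afg3l2, the protease that matures Mrpl32, was highest at 0.48, with 47.7 FPKM in Shikonin and 33.8 FPKM in Vehicle, and Mrpl32 itself had 41.9 FPKM in shPKM2, 44.1 in shControl, 66.2 in Shikonin, 49.8 in TEPP-46 and 52.1 in Vehicle. In TEPP-46 against Vehicle 0 of the 25 were at least 0.32 lower and 5 were higher, with a median of 0.13, beside 8.91% lower and 10.6% higher among all genes. These were Ngrn at 0.48, Nsun4, an RNA methyltransferase, at 0.46, Rpusd3 at 0.41, Ddx28 at 0.38 and Mrm1 at 0.37. In shPKM2 against shControl 1 was higher by that much, beside 4.65% of all genes: Mterf4 at 0.39 under the older symbol Mterfd2.

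Of 15 translation factors and activators past the filter 4 were at least 0.32 lower and 2 higher in Shikonin than in Vehicle, with a median of 0.01, beside the same 27.5% and 23.8% of all genes. Guf1, the relative of a bacterial elongation factor, was at -0.79 and Tsfm, the exchange factor of the elongation factor Tufm, at -0.52. Lrpprc, which stabilises mitochondrial mRNA, was at 0.49, while its partner Slirp was at -0.07. Tufm had 69.8 FPKM in Shikonin and 72.3 FPKM in Vehicle, a difference of -0.05. In TEPP-46 against Vehicle and in shPKM2 against shControl 0 of the 15 passed 0.32 in either direction, beside 8.91% lower and 10.6% higher among all genes with TEPP-46 and 4.26% and 4.65% in the knockdown. Of 9 genes of mitochondrial transcription and genome upkeep Tfb2m was highest at 0.45 and Ssbp1 lowest at -0.57 in Shikonin against Vehicle. Messenger RNAs of the mitochondrial genome, the templates of these ribosomes, could not be analysed: 0 of the 13 names searched matched a row.

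Among 10 nuclear factors and coactivators known for mitochondrial genes, Gabpb2, a partner of the ETS factor Gabpa, was lowest in Shikonin against Vehicle at -0.96, with 5.32 FPKM in Shikonin and 11.3 FPKM in Vehicle. Its relative Gabpb1 was at 0.36 and Gabpa at -0.17. Yy1 was at 0.19 and Nrf1 at -0.19. Myc had 65.4 FPKM in Shikonin and 78.3 FPKM in TEPP-46, against 49.1 FPKM in Vehicle, differences of 0.41 and 0.66. Ppargc1a, the coactivator of mitochondrial growth, had 3.42 FPKM in shPKM2, 3.29 in shControl, 0.233 in Shikonin, 0.134 in TEPP-46 and 0.105 in Vehicle. It was thus higher in both hairpin libraries than in every 8 h library, and the difference between shPKM2 and shControl was 0.04.

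Many members share a start region with another gene. 32 of 76 (42.1%) had a protein-coding gene on the other strand whose 5′ end lay within 1000 bases, called head-to-head here. The same held for 1795 of 10196 genes past the filter (17.6%). Only the distance was used, so pairs whose 5′ parts overlap were counted together with pairs that lie apart. Such neighbours included other mitochondrial genes. The 5′ ends of Mrpl36 and Ndufs6, a subunit of complex I, lie 29 bases apart, and those of Mrpl47 and Ndufb5, another, 615 bases apart. In GENCODE M21 the genes of both pairs overlap. Mrpl46 and Mrps11, 1 gene of each subunit on chromosome 7, also overlap there, with 5′ ends 412 bases apart. These 5′ ends are the outer gene ends in GENCODE M21, and the RefSeq start of Mrpl46 lies 442 bases from its outer end. Distances and overlaps thus depend on the annotation. Mrpl49 faces Fau, which encodes a cytosolic ribosomal protein, across 59 bases, and Mrpl32 faces Psma2, a proteasome subunit, across 75.

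The differences of members and their neighbours showed little relation. Pearson's r was taken with each pair entered in both orders, so that it does not depend on which gene comes first. Across 28 pairs with both genes past the filter this r was -0.05 in shPKM2 against shControl, 0.01 in Shikonin against Vehicle, -0.02 in TEPP-46 against Vehicle, 0.04 in Shikonin against TEPP-46 and 0.03 in shControl against Vehicle. Across all 730 head-to-head pairs of the table r was 0.10, 0.17, 0.07, 0.13 and 0.37 in the same order. Mrpl54 and Apba3, 26 bases apart, were at -0.38 and 0.95 in Shikonin against Vehicle. Mrpl51 and Ncapd2, a condensin subunit, 100 bases apart, were at -0.19 and -1.08. Mrpl32 and Psma2 were both higher, at 0.34 and 0.66, and Mrpl36 and Ndufs6 both lower, at -0.36 and -0.31. Mrpl18 and Tcp1, a chaperonin subunit, overlap in GENCODE M21, with 5′ ends 644 bases apart. Tcp1 had 245 FPKM in TEPP-46 and 272 FPKM in Vehicle, a difference of -0.15 beside -0.62 for Mrpl18. Mrpl46 and Mrps11 were at 0.45 and 0.13 with shikonin, and at 0.02 and -0.30 with TEPP-46.

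**Figure D5:**
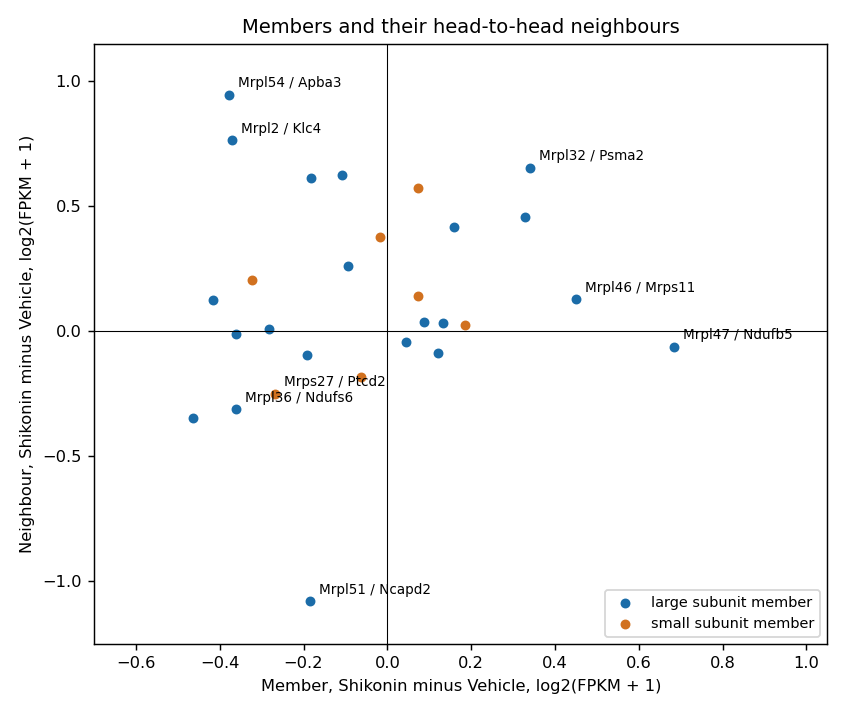
Each point is 1 of 28 members with a head-to-head neighbour past the filter, with the difference of the member in log2(FPKM + 1), Shikonin minus Vehicle, on the x axis and that of the neighbour on the y axis; the pair of 2 members, Mrpl46 and Mrps11, is drawn once. With each pair entered in both orders r was 0.01, which is not the r of the points as drawn. Apba3 at 0.95 and Ncapd2 at -1.08 stand beside members at -0.38 and -0.19.

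Positions gave little more. The 76 members lie on 17 chromosomes, with 10 on chromosome 11 and 8 on chromosome 17. 26 members overlap another protein-coding gene in GENCODE M21, 4 of them on the same strand. Since the use of strand in counting is not given in the sources used here, reads of all 26 could be shared with the overlapping gene. Mrpl13 overlaps Mtbp on the other strand: Mtbp had 33.5 FPKM in TEPP-46 and 19.9 FPKM in Vehicle, and Mrpl13 had 176 FPKM in TEPP-46 and 149 FPKM in Vehicle. Mrpl49 overlaps Syvn1: Syvn1 had 39.0 FPKM in Shikonin and 16.2 FPKM in Vehicle, while Mrpl49 had 37.6 FPKM in Shikonin and 40.2 FPKM in Vehicle. Mrps34 overlaps Nme3 on the same strand, and Nme3 differed by -0.68 between Shikonin and Vehicle while Mrps34 differed by -0.02 ± 0.067.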

How the data were processed

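RNA of 5 C2C12 cultures was measured, 1 library per condition. The authors deposited 1 table of FPKM values with a column per library. Per the submitters' processing notes, the tools included Trim Galore 0.6.0, cutadapt, FastQC and DESeq2 1.26.0, and the build was GRCm38. Not given in the sources used here are the aligner, the counter, the annotation, the strand setting and the meaning of the 30 at the end of the shControl column's name. Median-of-ratios factors of the columns were 0.998 to 1.00, so the deposited FPKM may be scaled by such factors rather than by mapped fragments. The length by which each gene was divided is not known, which touches short transcripts most.

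Columns were matched to conditions by name. Differences are of log2(FPKM + 1), for genes averaging 1 FPKM or more, and were counted at 0.32 (5 to 4) and at 2-fold. With 1 library per condition no test was run, and DESeq2 was not used. Depth was estimated from the steps of values up to 0.5 FPKM: 852 of 900 low genes with a single transcript (94.7%) had whole steps within a tolerance of 0.02. The counting SE follows from this depth and the transcript length. The depth estimate was tested on simulated data, and the counting SE itself was not. Lengths, overlaps and neighbours with 5′ ends within 1000 bases came from GENCODE M21, and promoters from RefSeq. Python 3.11.15, numpy 2.4.6 and pandas 2.3.3 were used.

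The members and all lists were chosen with earlier results of these data known. Members named are the 5 highest and 5 lowest of each comparison and of the mean levels, members of role lists, the Mrps18 paralogs and the genes whose letter and structure disagree; Pkm and, at most 4 at each end of a list, pathway genes are named too. Neighbouring and overlapping genes, and Mrpl32, were chosen after their values were seen, as was leaving out Mrps6. Alternatives were other added constants and filters, TPM, centring on all genes, and subunits by structure.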

Additional observations from a re-analysis of the deposited data

How the results depend on the processing

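The medians, counts and ratios of the report were taken under 8 other settings, which gave 185 values, 164 of them close to those reported. Many of the 164 could not differ. All 76 members have a mean of at least 5 FPKM, so that filter and no filter gave the same 25 values each. TPM cannot change a ratio of sums, and leaving out Mrps6 cannot change a large subunit median. The 164 are thus no measure of how stable the results are. With 5 in place of 1 added to FPKM, 1 member lay at least 0.32 below shControl in shPKM2. In Shikonin against Vehicle 20 were at least 0.32 lower and 4 at least 0.32 higher. In TEPP-46 against Vehicle 1 was at least 0.32 lower. On the TPM scale the large subunit median of shPKM2 minus shControl was 0.00052 and the small subunit median 0.027, where the median of all genes had moved by 0.06. Centred on the median of all genes they were -0.06 and -0.04. With TPM 1 member lay at least 0.32 below shControl in shPKM2 and 5 were at least 0.32 higher in Shikonin than in Vehicle. For shControl minus Vehicle, TPM gave medians of -0.016 in the large and -0.061 in the small subunit, with 4 members at least 0.32 lower and 4 higher. TPM moved the median of all genes by -0.07 in Shikonin minus Vehicle and in shControl minus Vehicle, and centred medians of shControl minus Vehicle were 0.07 in the large and 0.03 in the small subunit. With subunits by structure the ratio of small to large subunit sums was 0.521 in shPKM2, 0.516 in shControl, 0.550 in Shikonin, 0.501 in TEPP-46 and 0.484 in Vehicle. Without Mrps6 it was 0.512, 0.508, 0.554, 0.523 and 0.497 in the same order. Shikonin had the highest ratio and Vehicle the lowest in each case. The table held no pseudogene row of the family, so leaving out members with one gave no separate value. No paired analysis was possible because each condition has 1 library. Depth limits single members to a counting SE of 0.021 to 0.164, and culture variation is unmeasured.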
